A study of Mus musculus with 5 samples.

Results

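Cone phototransduction genes encode the light-sensing cascade of cone photoreceptors, the cells of the retina used for daylight and colour vision. The 9 genes described here were Opn1sw, Opn1mw, Arr3, Gnat2, Gngt2, Pde6c, Pde6h, Cnga3 and Cngb3. They were found by gene name among 24768 loci of the deposited mouse tables, of which 23141 carried a name and 15241 held enough fragments to be tested. Each of the 9 genes was 1 locus with no other name, and 8 were tested. The 7 tested genes other than Gngt2 reached the count minimum through the wild-type libraries.

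RNA was sequenced from 3 eye tumors of adult mice and from the uvea of adult wild-type mice (2 libraries). The tumor mice had the genotype AAV5-Cre;Lats1/2 fl/fl, meaning floxed alleles of Lats1 and Lats2, kinases of the Hippo pathway, and Cre recombinase delivered by an injected adeno-associated virus of serotype 5. The wild-type samples are labelled with no floxed allele and no virus, so genotype, virus and kind of tissue differ together between the groups. The labels used here name no promoter of Cre, injection site, exact age or pooling of animals. Nothing ties a library to 1 animal, so the spread behind each p-value is that between libraries and may be technical. Tissue of both groups was frozen after isolation and extracted in the same way.

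Libraries are called tumor library 1, 2 and 3 and wild-type library 1 and 2 in the order of the deposited table. They held 12687700 to 14368274 fragments in tumors and 12799990 and 13911932 in wild type. The targeted gene Lats1 fell (log2 fold change −1.21, edgeR adjusted p = 0.012), with 3.43, 3.90 and 2.94 FPKM in tumor libraries 1, 2 and 3 against 7.55 and 8.86 FPKM in wild type. Lats2 had 12.6, 17.0 and 14.3 FPKM in tumors against 20.05 and 20.2 FPKM in wild type and did not pass (log2 fold change −0.62, edgeR adjusted p = 0.058). FPKM is the number of fragments scaled for transcript length and library depth, so it allows levels of different genes to be compared. Wild-type libraries 1 and 2 both held Xist, the RNA of the inactive X chromosome (3.30 and 3.05 FPKM), together with the Y-linked Ddx3y (8.60 and 10.7 FPKM), so each held RNA of both sexes. Tumor library 3 had 22.6 FPKM of Xist and no Ddx3y fragment, and tumor libraries 1 and 2 had 0.00792 and 0.00803 FPKM of Xist and 21.3 and 14.6 FPKM of Ddx3y.

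The uvea is the pigmented layer of iris, ciliary body and choroid and lies against the retina, but it does not itself contain cones. In a cone, light isomerises the chromophore of an opsin, and the opsin activates the G protein transducin. Transducin relieves the inhibition of a phosphodiesterase that breaks down cyclic GMP, and the fall of cyclic GMP closes a cation channel in the outer segment. A cone-specific arrestin then shuts the opsin off. Rods run the same cascade with their own set of subunits, which makes rod genes available as partners for cone genes. The wild-type uveal libraries held transcripts of rods and of the retinal pigment epithelium as well: Gnat1, the alpha subunit of rod transducin, stood at 251 and 271 FPKM, and Rpe65, the visual-cycle isomerase of that epithelium, at 745 and 829 FPKM.

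The stretches upstream of the transcription start are printed for the 5 genes on which the comparisons below turn and which the RefSeq promoter table (GRCm38.p6) lists, because several of these genes changed together. Each runs 5′ to 3′ on the gene's strand, covers the 250 bases before the start, and has TAATC in capitals, or GATTA where it lies on the other strand. Opn1sw is taken from chr6:29380514-29380763 (minus strand), Opn1mw from chrX:74127216-74127465, Arr3 from chrX:100605247-100605496, Gnat2 from chr3:108092816-108093065 and Pde6h from chr6:136954273-136954522 (all plus strand).
Opn1sw: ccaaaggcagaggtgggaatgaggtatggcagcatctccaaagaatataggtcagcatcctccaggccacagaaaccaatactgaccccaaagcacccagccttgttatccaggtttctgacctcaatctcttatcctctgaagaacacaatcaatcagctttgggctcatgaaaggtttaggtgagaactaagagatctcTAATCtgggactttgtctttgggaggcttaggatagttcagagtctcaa
Opn1mw: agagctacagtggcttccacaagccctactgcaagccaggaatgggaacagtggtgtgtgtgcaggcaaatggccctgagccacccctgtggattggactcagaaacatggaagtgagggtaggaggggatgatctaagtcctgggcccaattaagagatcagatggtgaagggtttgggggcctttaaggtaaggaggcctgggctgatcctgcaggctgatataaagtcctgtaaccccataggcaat
Arr3: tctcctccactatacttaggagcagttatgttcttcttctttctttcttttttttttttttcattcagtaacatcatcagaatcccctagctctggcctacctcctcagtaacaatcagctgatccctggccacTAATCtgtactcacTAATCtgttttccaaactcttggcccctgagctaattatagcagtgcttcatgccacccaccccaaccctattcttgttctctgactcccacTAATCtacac
Gnat2: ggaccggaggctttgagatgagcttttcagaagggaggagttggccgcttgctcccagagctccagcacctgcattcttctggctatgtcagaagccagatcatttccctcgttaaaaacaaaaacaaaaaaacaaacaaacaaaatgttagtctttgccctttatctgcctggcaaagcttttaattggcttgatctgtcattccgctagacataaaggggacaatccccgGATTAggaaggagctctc
Pde6h: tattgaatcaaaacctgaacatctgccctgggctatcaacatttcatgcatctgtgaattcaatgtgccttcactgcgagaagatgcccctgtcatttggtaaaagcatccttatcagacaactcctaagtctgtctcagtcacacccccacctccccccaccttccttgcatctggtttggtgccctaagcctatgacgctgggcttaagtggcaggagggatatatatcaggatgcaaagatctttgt

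The motif TAATCC, the core bound by the photoreceptor homeodomain factors Crx and Otx2, was searched on both strands in the 6 genes that the table lists, Cnga3 among them with 2 starts. It occurred before the start of 1 gene, Gnat2, and in 6.25% of all 32851 promoters. The shorter TAATC, searched after the sequences were seen, occurred in 3 of the 6 genes and in 19.8% of all promoters. Arr3 held 3 copies, and Opn1sw and Gnat2 held 1 each. The Opn1sw stretch also held TGCTGA, the partial site of the rod factor Nrl (16.1% of all promoters), and 2 copies of AGGTCA, a nuclear receptor site (14.0% of all). TATAAA was found upstream of Opn1mw and of 1 start of Cnga3 (12.4% of all). None of the motifs was found in the Pde6h stretch. Gngt2, Pde6c and Cngb3 were not matched in the table.

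Most cone genes were lower in the tumors. Of the 8 genes tested, Opn1sw, Arr3, Gnat2, Pde6c and Pde6h fell, none rose, and Opn1mw, Gngt2 and Cngb3 did not pass (edgeR quasi-likelihood test, adjusted p under 0.05 over all loci). Over all tested loci 15.4% fell and 18.7% rose, or 34.1% in both directions. The median log2 fold change of the 8 genes was −4.02, beside 0.05 over all loci. The 7 genes other than Gngt2 passed the count minimum through the wild-type libraries, so the filter favoured falls among them. Not all loci entered that way, so the shares and the median over all loci are not a like background. Every tumor library lay below both wild-type libraries for 8 of the 9 genes, which was so for 35.9% of all tested loci. Every tumor library lay above both for Gngt2, which was so for 33.7%. The 8 genes include Cnga3, which was not tested and had 4 fragments in both tumor library 2 and wild-type library 2. Fewer cells of a type and less RNA per cell cannot be told apart in such bulk libraries. The number of cone genes that fell depended on the libraries included: it was 1 (Arr3) without tumor library 1, 7 without tumor library 2 and 4 without tumor library 3. It was 0 without either wild-type library, where a single one is left in its group and edgeR called none of the other loci either. DESeq2 called 6 cone genes lower and Gngt2 higher over all 5 libraries. Without wild-type library 1 it called 2, Opn1sw lower and Gngt2 higher, and without wild-type library 2 it called 4.

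**Figure D1:**
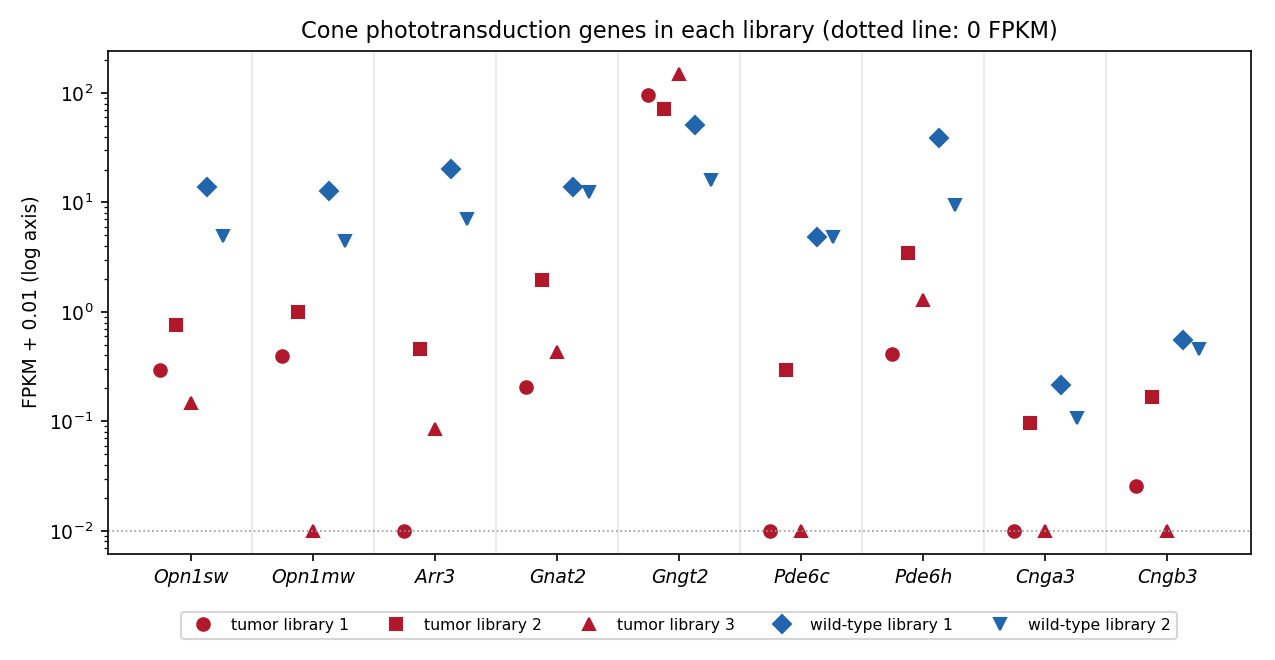
Level of each cone gene in each library, on a logarithmic axis of FPKM + 0.01, with tumor libraries left of wild-type libraries. For 8 genes every tumor point lies below both wild-type points, and for Gngt2 every tumor point lies above them. For Cnga3, tumor library 2 and wild-type library 2 both held 4 fragments.

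The opsins are the light receptors. Opn1sw encodes the short-wavelength opsin, which in the mouse absorbs ultraviolet light (chromosome 6, 29376671 to 29388468, minus strand, GENCODE annotation of GRCm38, as for all genes below). It had 0.287, 0.743 and 0.136 FPKM in tumor libraries 1, 2 and 3, against 13.9 and 4.91 FPKM in wild-type libraries 1 and 2. These levels came from 9, 23 and 4 fragments in tumors and 413 and 135 in wild type. Opn1sw fell with a log2 fold change of −4.53 (SE 0.85, edgeR adjusted p = 0.019; 0.054 without tumor library 1), and the level of wild-type library 1 was well above that of library 2. Its exons share 397 of 2557 bases with Calu on the opposite strand. No strand setting of the counting is named in the sources, so fragments of the 2 genes cannot be told apart there.

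Opn1mw encodes the middle-wavelength opsin (chromosome X, 74127464 to 74150760, plus strand). Its levels were 0.385, 0.984 and 0 FPKM in tumors and 12.6 and 4.39 FPKM in wild type, from 5, 14 and 0 fragments and from 172 and 53. The groups did not overlap, but Opn1mw missed the threshold in edgeR (log2 fold change −4.16, SE 1.27, adjusted p = 0.059). It passed in edgeR without tumor library 2 (−5.47, adjusted p = 0.037) or tumor library 3 (−3.61, adjusted p = 0.042), and in DESeq2 over all libraries (−4.22, adjusted p = 0.0081). Within a library both opsins were at similar FPKM: the ratio of Opn1sw to Opn1mw was 0.745 and 0.755 in tumor libraries 1 and 2, against 1.10 and 1.12 in wild-type libraries 1 and 2. The tumor ratios rest on few fragments, and in tumor library 3 no Opn1mw fragment was counted.

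Arr3 encodes cone arrestin, which binds activated, phosphorylated cone opsin (chromosome X, 100605497 to 100618493, plus strand). It had 0, 0.452 and 0.0750 FPKM in tumors, from 0, 6 and 1 fragments, and 20.01 and 7.08 FPKM in wild type, from 250 and 76 fragments. Arr3 fell by 6.08 on the log2 scale (SE 1.21, edgeR adjusted p = 0.022), the lowest log2 fold change among the 8 genes tested, and it passed with any 1 tumor library left out (adjusted p 0.013 to 0.038). In wild-type libraries 1 and 2 the FPKM ratio of Opn1sw to Arr3 was nearly the same, at 0.696 and 0.694.

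Transducin couples the opsin to the phosphodiesterase. Gnat2 encodes its cone alpha subunit (chromosome 3, 108092789 to 108101432, plus strand) and had 0.198, 1.95 and 0.422 FPKM in tumors, against 14.0 and 12.5 FPKM in wild type. The fragments were 4, 39 and 8 in tumors and 267 and 221 in wild type. Gnat2 fell with a log2 fold change of −3.89 (SE 0.95, edgeR adjusted p = 0.036), and its wild-type levels were similar, unlike those of the opsins and Arr3. It missed the threshold in edgeR without tumor library 1 (−3.41, adjusted p = 0.051) or tumor library 3 (−3.57, adjusted p = 0.062), and stood at −5.39 without tumor library 2.

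Gngt2, the gamma subunit of cone transducin, went the other way (chromosome 11, 95837216 to 95845734, plus strand). It had 95.1, 70.9 and 150 FPKM in tumors, from 497, 370 and 743 fragments, and 51.5 and 16.1 FPKM in wild type, from 247 and 73 fragments. All tumor libraries were above both wild-type libraries, but Gngt2 missed the threshold in edgeR (log2 fold change 1.73, SE 0.61, adjusted p = 0.085). DESeq2 called it higher (1.70, adjusted p = 0.020; 2.74 and adjusted p = 0.00053 without wild-type library 1), but not without wild-type library 2 (1.09, adjusted p = 0.244). Gngt2 had the highest FPKM of the 9 genes in every library, and the ratio of Gngt2 to Gnat2 was 481, 36.3 and 357 in tumor libraries 1, 2 and 3 against 3.68 and 1.29 in wild type.

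The phosphodiesterase of cones has a catalytic subunit, Pde6c, and a small inhibitory subunit, Pde6h, that transducin displaces. Pde6c (chromosome 19, 38132781 to 38183958, plus strand) had 0, 0.284 and 0 FPKM in tumors, against 4.83 and 4.86 FPKM in wild type. Tumor library 2 alone held fragments, 11 of them, beside 179 and 167 in wild type. Pde6c fell by 5.57 on the log2 scale (SE 1.47, edgeR adjusted p = 0.043), and its wild-type levels were nearly equal. It missed the threshold without tumor library 1 (−4.99, edgeR adjusted p = 0.065). Without tumor library 2 all tumor counts were 0, so its fold there has no fixed size. Pde6h (chromosome 6, 136923832 to 136968865, plus strand) had 0.401, 3.46 and 1.28 FPKM in tumors, from 2, 17 and 6 fragments, and 38.6 and 9.39 FPKM in wild type, from 182 and 41 fragments. Pde6h fell with a log2 fold change of −3.74 (SE 1.02, edgeR adjusted p = 0.046), with wild-type libraries far apart. That call was lost in edgeR without TMM scaling between libraries (adjusted p = 0.052), without the count minimum (0.051), and without tumor library 1 (−3.27, adjusted p = 0.081) or tumor library 3 (−3.59, adjusted p = 0.091). Without wild-type library 1 the log2 fold change was −2.44 (adjusted p = 0.287). Its exons share 136 of 7846 bases with Arhgdib on the opposite strand, so fragments there cannot be told apart either. The ratio of Pde6h to Pde6c in FPKM was 12.2 in tumor library 2, against 8.01 and 1.93 in wild-type libraries 1 and 2.

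The cyclic GMP-gated channel is built from Cnga3 and Cngb3, the subunits whose loss causes achromatopsia in humans. Both were low in all libraries. Cnga3 (chromosome 1, 37214434 to 37263384, plus strand) had 0, 4 and 0 fragments in tumors and 9 and 4 in wild type, or 0, 0.0865 and 0 FPKM against 0.203 and 0.0974 FPKM, and it did not reach the count minimum. Fitted without that minimum it had a log2 fold change of −2.23 (edgeR adjusted p = 0.288). Cngb3 (chromosome 4, 19280850 to 19510623, plus strand) had 1, 10 and 0 fragments in tumors and 33 and 25 in wild type. These were 0.0156, 0.158 and 0 FPKM in tumors and 0.545 and 0.445 FPKM in wild type. Cngb3 did not pass (log2 fold change −2.99, SE 1.26, edgeR adjusted p = 0.124), and without tumor library 2 it did (−5.61, adjusted p = 0.015).

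The wild-type libraries differed from each other in part of the cone genes. In fragments per scaled library size, Pde6h was 4.16 times as high in wild-type library 1 as in library 2 (exact 95% binomial interval 2.95 to 5.99). The ratio was 3.17 for Gngt2 (2.43 to 4.18), 3.08 for Arr3 (2.38 to 4.04), 3.04 for Opn1mw (2.22 to 4.22) and 2.87 for Opn1sw (2.36 to 3.51). The intervals of these 5 genes overlap each other. They cover counting error only and compare a pair of libraries, not conditions.

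The intervals of the other 4 cone genes held 1. Gnat2 had a ratio of 1.13 (0.944 to 1.36), Pde6c of 1.00 (0.809 to 1.25) and Cngb3 of 1.24 (0.714 to 2.17). Cnga3, with 13 fragments in all, had a ratio of 2.11 with an interval too wide to place it (0.589 to 9.37). Thus 5 of the 8 cone genes with at least 20 fragments in the pair had a ratio of at least 2, which was so for 0.667% of 14548 loci (97). Their intervals left out 1, as did those of 21.9% of all such loci. Among 12311 loci with at least 100 fragments, 13 (0.106%) had such a ratio, and Pde6h, Gngt2, Arr3, Opn1mw and Opn1sw held the ranks 1, 3, 4, 5 and 6. No locus in that set was at least 2 times as high in wild-type library 2 as in library 1. The 5 genes lie on chromosomes 6, 11 and X and encode receptors, an arrestin, a transducin subunit and a phosphodiesterase inhibitor.

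The split was not seen in rod genes. The ratios of 8 rod partners ran from 0.878 to 0.977, with a median of 0.927. Gngt1 and Pde6g, partners of Gngt2 and Pde6h, stood at 0.977 and 0.974. The cause of the split was not tested. Of 20 further phototransduction genes none reached 2, and the highest was Gnb3 at 1.89 (1.57 to 2.29), the beta subunit of cone transducin. None of 11 photoreceptor transcription factors and none of 20 outer segment and synapse genes reached 2. Among 17 inner retina markers Vsx1, a gene of cone bipolar cells, did (3.75, interval 1.37 to 12.8), with 20 and 5 fragments.

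**Figure D2:**
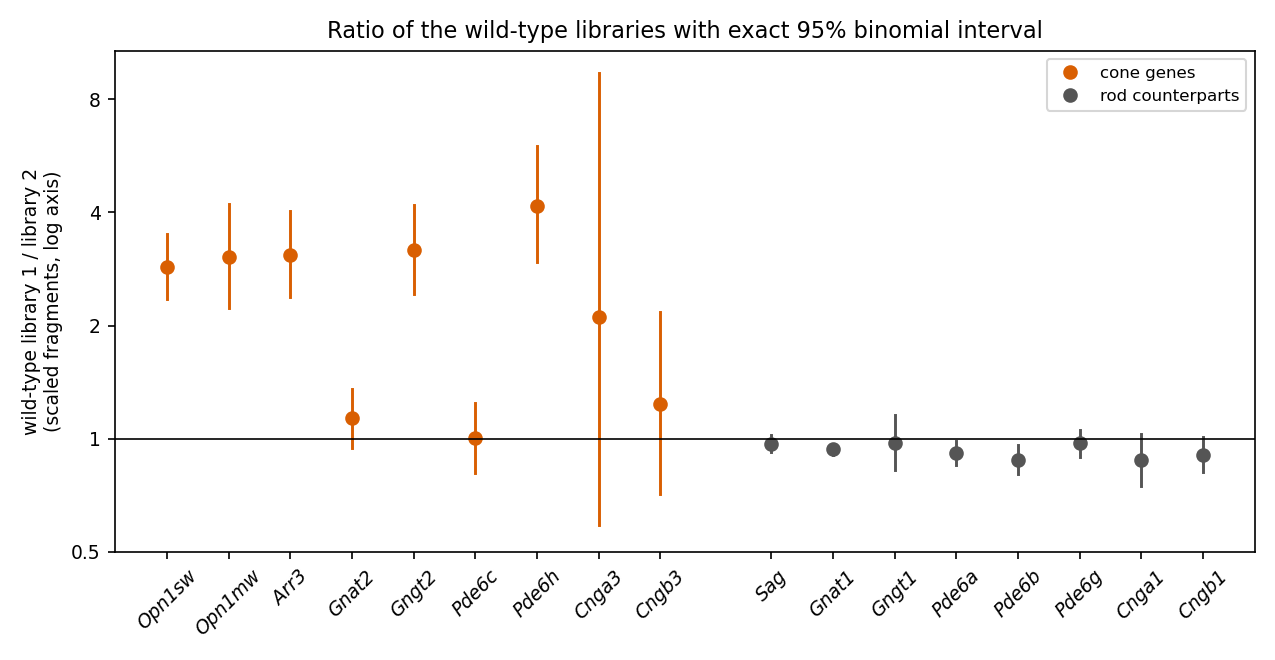
Ratio of wild-type library 1 to wild-type library 2 for each cone gene and each of 8 rod partners, on a logarithmic axis, with exact 95% binomial intervals as bars. Pde6h, Gngt2, Arr3, Opn1mw and Opn1sw lie between 2.87 and 4.16, and the rod partners between 0.878 and 0.977.

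Rod genes were lower in the tumors too. All 8 rod partners fell, with a median log2 fold change of −7.19 beside −4.02 for the 8 cone genes tested. The cone median includes Gngt2, which had a log2 fold change of 1.73. Cone genes without Gngt2 held 1505 and 722 fragments in wild-type libraries 1 and 2, beside 14641 and 14622 for the rod partners. How far low counts limit the folds of cone genes was not tested. Gnat1 had 0.245, 0.249 and 1.05 FPKM in tumor libraries 1, 2 and 3, against 251 and 271 FPKM in wild type, a log2 fold change of −8.94 (SE 0.78, edgeR adjusted p = 0.0052). For the other partners it was −9.17 for Pde6b, −8.74 for Pde6a, −7.53 for Pde6g, −6.84 for Sag, −6.12 for Cngb1, −5.55 for Cnga1 and −5.53 for Gngt1.

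For each of 8 pairs the log2 ratio of the cone gene to its rod partner was taken within a library on FPKM + 0.1. In 7 pairs all tumor ratios were above both wild-type ratios, and the pair of Arr3 and Sag overlapped. The 7 pairs include Gngt2 to Gngt1, and Pde6c enters them with both Pde6a and Pde6b. The share of other gene pairs without overlap was not counted. The ratio of Gnat2 to Gnat1 was −0.22, 2.56 and −1.14 in tumors, against −4.16 and −4.43 in wild type, a difference of 4.70. That of Pde6h to Pde6g was 0.31, 1.53 and 1.11 in tumors and −1.71 and −3.79 in wild type, a difference of 3.73. The differences were 2.55 and 2.72 for Pde6c to Pde6a and Pde6b, 4.12 for Cnga3 to Cnga1 and 3.77 for Cngb3 to Cngb1. For Gngt2 to Gngt1 the difference was 7.30 and for Arr3 to Sag 1.07.

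No pair can pass at 0.05, because 3 against 2 libraries allow no two-sided exact permutation p below 0.1. This smallest p was reached by 6 pairs (0.133 adjusted over the 8 pairs), Pde6c to Pde6a had p = 0.2 (adjusted 0.229) and Arr3 to Sag had p = 0.6 by the same exact test. Several tumor values rest on the pseudocount: Pde6c was at 0 in tumor libraries 1 and 3 and Cnga3 as well. By construction the pseudocount draws the ratio of low values towards 0, which lies above most wild-type ratios.

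The cone genes without Gngt2 made up 29.2% of the fragments of cone genes and the 8 rod partners in tumor library 1 (exact 95% interval 19.0 to 41.1), 59.6% in tumor library 2 (52.6 to 66.3) and 17.1% in tumor library 3 (10.6 to 25.4). In wild-type libraries 1 and 2 they made up 9.32% (8.88 to 9.78) and 4.71% (4.38 to 5.05). The tumor shares come from 21, 124 and 19 cone fragments beside 51, 84 and 92 rod fragments. In wild type there were 1505 and 722 cone fragments beside 14641 and 14622 rod fragments. Every tumor share was above both wild-type shares, and the share of tumor library 2 was above those of the other tumors by more than the counting intervals.

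**Figure D3:**
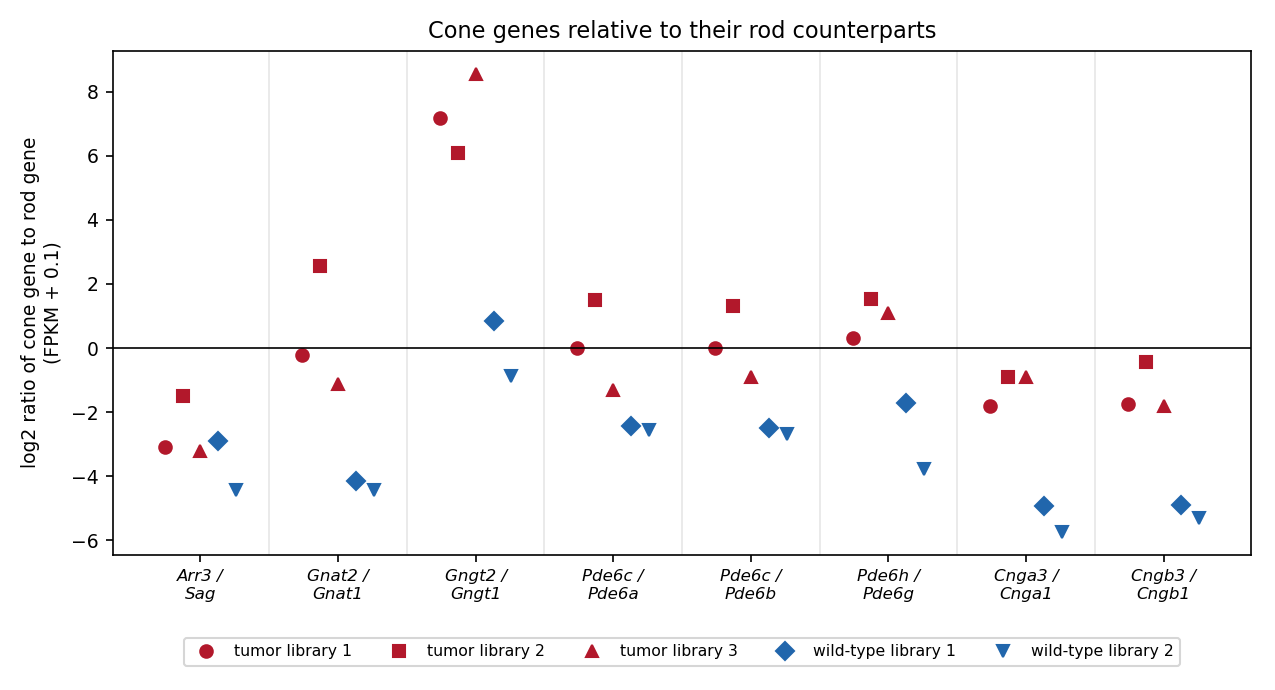
Log2 ratio of each cone gene to its rod partner in each library, computed on FPKM + 0.1, with tumor libraries left of wild-type libraries. In 7 of 8 pairs the tumor points lie above both wild-type points, and for Arr3 to Sag they overlap.

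Gngt2 aside, tumor library 2 held the most cone transcript of the 3 tumors, with a summed level of 1.29, 8.12 and 1.92 FPKM over the other 8 genes in tumor libraries 1, 2 and 3, against 104.8 and 43.6 FPKM in wild type. It had the highest FPKM of the 3 tumors for 8 of the 9 cone genes, Gngt2 being highest in tumor library 3. The same library was highest for 3 of the 8 rod partners, 16 of 20 further phototransduction genes and 16 of 20 outer segment and synapse genes. So it was for 8 of 14 photoreceptor transcription factors, 16 of 19 inner retina markers and 10 of 15 lens markers. Among retinal pigment epithelium markers it was highest for 8 of 10, and among melanocyte and pigment markers for 9 of 11. For macrophage and monocyte loci the count was 0 of 19, and for T, NK and B cell markers 1 of 16. The share over all loci was not counted. Grm6, the glutamate receptor of ON bipolar cells, had 0.0340, 1.497 and 0 FPKM in tumor libraries 1, 2 and 3, against 0.995 and 0.747 FPKM in wild type. The summed level of the inner retina list was 50.2, 80.3 and 35.8 FPKM in tumors and 236 and 222 FPKM in wild type. Much of the wild-type sum came from Slc6a9 alone, at 152 and 150 FPKM, against 2.16, 7.08 and 2.32 FPKM in tumors. Of the 16 tested genes of that list 2 fell and 14 did not pass, beside 15.4% of all tested loci that fell. The part of such cells in the cone values of tumor library 2 was not tested.

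The higher Gngt2 level in tumors stood beside higher levels of leukocyte genes. In the mouse Gngt2 is also transcribed in monocytes and other leukocytes, outside the retina. Of 19 macrophage and monocyte loci, 17 rose, none fell and 2 did not pass, with a median log2 fold change of 3.63. Their summed level was 8310, 5256 and 16459 FPKM in tumor libraries 1, 2 and 3, against 1043 and 1021 FPKM in wild type. Ptprc, the CD45 antigen of leukocytes, had 32.2, 19.97 and 47.2 FPKM in tumors and 1.58 and 1.61 FPKM in wild type (log2 fold change 4.41). Cx3cr1, a chemokine receptor of monocytes and microglia, had 71.9, 61.2 and 76.0 FPKM in tumors and 2.55 and 2.68 FPKM in wild type (log2 fold change 4.78, edgeR adjusted p = 0.0030). Among T, NK and B cell markers 10 of 15 tested rose and none fell. The part of leukocytes in the Gngt2 level was not tested.

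The wild-type libraries did not differ in leukocyte genes as they did in Gngt2. The ratio of wild-type library 1 to 2 ran from 0.897 to 1.32 over the 18 macrophage and monocyte loci that held 20 fragments or more, with a median of 1.02. The FPKM ratio of Gngt2 to Arr3 was 157 and 2007 in tumor libraries 2 and 3, against 2.57 and 2.27 in wild-type libraries 1 and 2. Abi3, a macrophage and microglia gene, overlaps Gngt2 on the opposite strand and shares 234 of its 1877 exonic bases, so fragments there cannot be told apart. Abi3 had 23.4, 12.1 and 16.9 FPKM in tumors and 5.28 and 5.48 FPKM in wild type and rose (log2 fold change 1.82, edgeR adjusted p = 0.015). Its ratio of wild-type library 1 to 2 was 1.01.

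**Figure D4:**
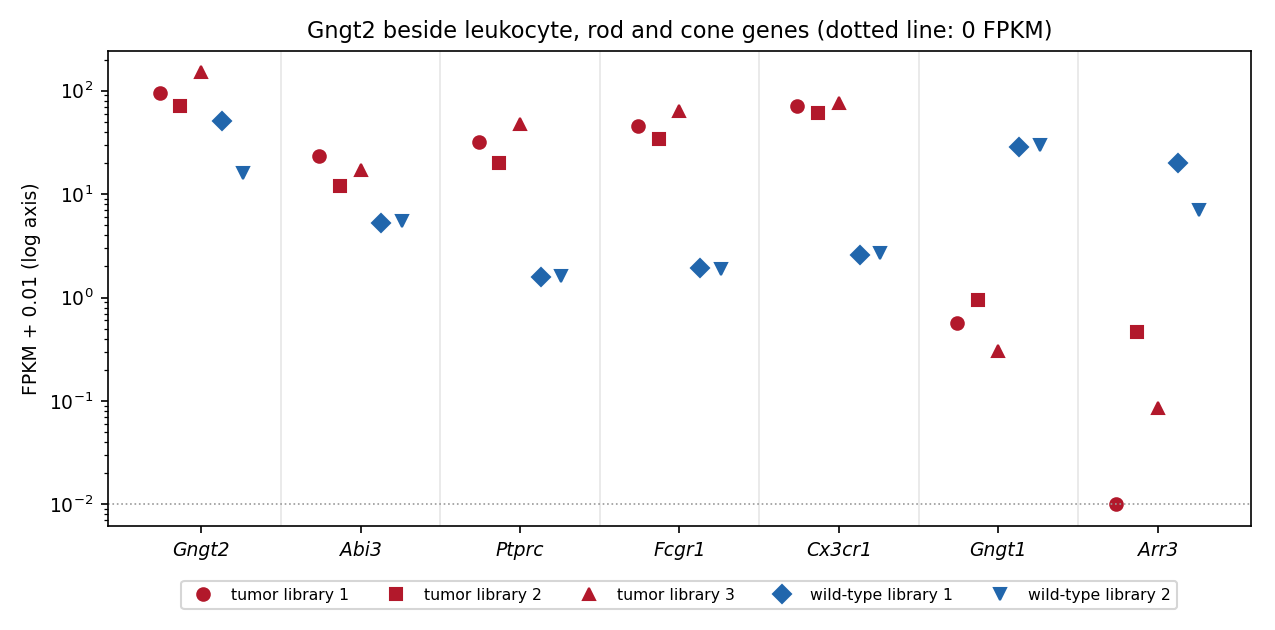
Levels of Gngt2, of the leukocyte genes Abi3, Ptprc, Fcgr1 and Cx3cr1, of the rod gene Gngt1 and of the cone gene Arr3 in each library, on a logarithmic axis of FPKM + 0.01. Gngt2 and the leukocyte genes are higher in all tumor libraries, whereas Gngt1 and Arr3 are lower in all of them.

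Genes that work beside the cone proteins fell for the most part. Of 20 further phototransduction genes, many of them shared by rods and cones, 16 fell, none rose and 4 did not pass, with a median log2 fold change of −4.92. Guca1b, an activator of guanylate cyclase, had a log2 fold change of −7.77, and Unc119, a carrier of lipid-modified transducin, one of −3.82. Pdc, the transducin-binding phosducin, and Grk1, the opsin kinase of both photoreceptor types in the mouse, had −9.85 and −5.01. The beta subunit of cone transducin, Gnb3, had 3.82, 9.42 and 0.277 FPKM in tumors and 14.7 and 8.01 FPKM in wild type. Its groups overlapped and it did not pass (log2 fold change −1.24, edgeR adjusted p = 0.456). Slc24a2, the cation exchanger of cones, did not pass either, at −0.39 (edgeR adjusted p = 0.793). It had 16, 39 and 2 fragments in tumors and 28 and 20 in wild type. The remaining genes of the list that did not pass were Gnb1 (−0.69, edgeR adjusted p = 0.080) and Pde6d (−0.30, edgeR adjusted p = 0.186).

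Of 11 tested photoreceptor transcription factors 5 fell, none rose and 6 did not pass, with a median log2 fold change of −4.46. The count was 3 without tumor library 1. The rod factors Nrl and Nr2e3 fell, with log2 fold changes of −8.86 and −7.38. Crx, Neurod1 and Otx2, which act in both photoreceptor types, fell as well, at −5.09, −4.46 and −6.63. Otx2 stood at 179 and 178 FPKM in wild type, beside 13.9 and 14.5 FPKM for Crx. The part of cells other than photoreceptors in the Otx2 level was not tested. The factors tied to cone opsin choice did not pass. Thrb, a thyroid hormone receptor needed for middle-wavelength opsin, had 1.96, 1.52 and 0.375 FPKM in tumors, against 4.68 and 5.41 FPKM in wild type (log2 fold change −1.93, edgeR adjusted p = 0.082). Rxrg, its partner, had 3.18, 1.88 and 0.102 FPKM in tumors and 2.66 and 2.53 FPKM in wild type (−0.58, adjusted p = 0.720), with overlapping groups. Of 20 outer segment and synapse genes 15 fell, none rose and 5 did not pass, with a median of −5.47. Prph2, a disc rim protein of rods and cones, had 0.0868, 1.14 and 0.216 FPKM in tumors and 117 and 127 FPKM in wild type (log2 fold change −7.92, edgeR adjusted p = 0.0097).

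Likeness to the cone genes was measured over the 5 libraries as the root mean square difference, in log2 CPM, between a locus and the mean profile of the 8 tested genes, each centred on its own mean. The nearest single-name loci outside the group were Gm10639 (0.196), Rps6ka6 (0.204), Nrn1l (0.252), Cacng5 (0.264), Defb9 (0.270) and Hes5 (0.291). Of these, Nrn1l had the most fragments, with 2, 8 and 3 in tumors and 96 and 47 in wild type. The cone genes themselves lay 0.442 (Pde6h) to 1.13 (Pde6c) from their mean, apart from Gngt2 at 2.80. With Gngt2 left out of the profile the nearest were Pax6os1 (0.136), Hes5 (0.309) and Gsta3 (0.317).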

How the data were processed

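Total RNA was sequenced from 3 tumor and 2 wild-type libraries. The submitters' processing notes name build mm10 and the tools TopHat2 (2.0.9), Cuffdiff and Cufflinks (2.2.1), but the sources give neither their roles nor annotation and strand setting. The deposited table gives, per the file headers, an estimated count of fragments and an FPKM scaled by the authors per locus and library. Of the estimated counts 96.8% to 97.1% were whole (98.6% to 98.7% within 0.01), and all were rounded. FPKM were used as deposited. The deposited group FPKM, a mean of the replicates, was not used. Its replicate numbers start at 0, and nothing ties them to those of the labels.

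Loci without a name (1.52% to 4.37% of fragments) were left out. Replicate pairs differed by more than sampling noise (chi-square per degree of freedom 5.43 in wild type and 102 to 129 in tumors). Tumor was compared with wild type in edgeR 4.0.16 (R 4.3.3) with filterByExpr (minimum count 10), TMM scaling and the quasi-likelihood test, two-sided, with Benjamini-Hochberg adjustment over 15241 loci. An adjusted p under 0.05 counts as a rise or fall, and adjusted p-values are edgeR's unless DESeq2 1.42.0 or limma 3.58.1 is named. An SE is the log2 fold change over the square root of the F statistic. The fit was tested on simulated data.

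The cone genes and marker lists were chosen with earlier results of these data known. Named are all cone genes and the rod partners reported, up to 4 called genes of smallest p per list with genes that define a cell type, and the 6 most similar loci. Gnb3, Slc24a2, Gnb1, Pde6d, Prph2, Vsx1, Otx2, Thrb, Rxrg, Grm6 and Abi3 were named after their values were seen. A few genes of the lists are not reported here and were left out of all list counts and pairs. Alternatives were another tool, no TMM scaling, no filter, limma on log2(FPKM + 1) and log2(FPKM + 0.1), each library left out, and a replicate block.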

Additional observations from a re-analysis of the deposited data

How the results depend on the processing

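Over all loci, 5201 passed in edgeR. The count was 6960 with DESeq2, 5117 without TMM scaling, 4675 without the low-count filter, and 5739, 5586 and 5604 with limma on log2(FPKM + 1), on log2(FPKM + 0.1) and on log2(FPKM + 1) of loci with at least 1 FPKM in 2 libraries. Leaving out 1 library gave 0 to 6144: 0 without either wild-type library (4085 and 3996 at an unadjusted p under 0.05 without library 1 and 2), where DESeq2 called 2861 and 2831 (added after the data were seen). A single wild-type library is assumed there to vary like the tumors.

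Of the cone genes, 5 passed in edgeR, 7 with DESeq2, 4 without TMM scaling, 4 without the filter, and 7, 7 and 6 in the 3 limma fits. Leaving out 1 library gave 0 to 7 in edgeR, and DESeq2 called 2 without wild-type library 1 and 4 without library 2. Of 109 log2 fold changes of single cone genes under these alternatives none changed sign. A call was lost in 28 and gained in 11. The other 70 stayed as they were, called or not called. Cone to rod pairs without overlap numbered 7 to 8 with a library left out. A pseudocount of 1 FPKM gave 8, but it exceeds most tumor values of these genes and draws their ratios towards 0 by construction, so it does not test the count. The 5 unequal ratios between wild-type libraries stayed 5 without TMM scaling. TAATC in place of TAATCC moved the genes with a match to 3.

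With the replicate number as a block 3067 loci and 0 cone genes passed in edgeR. At an unadjusted p under 0.05 there were 6 cone genes, beside 6519 of all 15241 loci. Deviations of same-numbered libraries from their group means correlated at 0.013 and 0.027. Tumor libraries varied far more than wild-type libraries, so these correlations cannot tell whether same-numbered libraries share more than a number. Fragment counts limit the channel genes and most tumor values of cone genes. The cause of these shifts was not tested.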

Other observations

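Besides the 5 cone genes, 8 of the 12311 loci with at least 100 fragments were at least 2 times as high in wild-type library 1 as in wild-type library 2. They are named after their values were seen. Gm10653, a predicted gene, had a ratio of 3.56 (exact 95% binomial interval 2.36 to 5.52), from 114 and 30 fragments. Apoc1, an apolipoprotein, had 2.51 (1.74 to 3.69), and Nnat, a proteolipid of neural tissue, had 2.50 (1.88 to 3.37). Fxyd3, a regulator of the sodium pump, had 2.31 (1.90 to 2.82). The shared locus of the alpha globins Hba-a1 and Hba-a2 had 2.18 (1.98 to 2.40), and the insulin gene Ins2 also had 2.18 (1.79 to 2.66). Vstm2l had 2.07 (1.36 to 3.23) and Pcp2, a gene of retinal bipolar cells and Purkinje cells, had 2.03 (1.35 to 3.13).

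In the tumors Ins2 had 0, 10 and 0 fragments, Vstm2l 1, 17 and 1, and Pcp2 4, 29 and 1 in libraries 1, 2 and 3. Of the 8 loci, these 3 and Nnat were highest in tumor library 2, and Gm10653, Apoc1, Fxyd3 and the globin locus in tumor library 1. Apoc1 had 172, 7.69 and 14.2 FPKM in tumor libraries 1, 2 and 3 against 36.2 and 14.5 FPKM in wild type.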
